A study of Bombyx mori with 12 samples.

Results

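Jockey elements of the silkworm Bombyx mori were described in 2 tables of transposons from BmN4 cells, an ovary-derived silkworm line in which the piRNA pathway is active. Members were the entries whose name gives the class LINE and the superfamily Jockey, without the separately named Jockey-BMC1 group, and there were 24 of 1716 entries in each table. The rule used no measured value. RNA, titled total RNA but given the molecule label polyA RNA and made into libraries with an mRNA kit, was measured in cells given siRNA against luciferase (LucKD, the control), Siwi (SiwiKD) or Mael (MaelKD), and the small RNA recovered with Siwi by anti-Flag immunoprecipitation in cells given siRNA against luciferase, Ago3 (Ago3KD) or Mael, with 2 libraries in each of the 6 groups. All cells, controls included, were BmN4 cells at 26 °C that received 500 pmol of siRNA duplex in repeated transfections and were collected at day 10. RNA after Ago3 knockdown and small RNA after Siwi knockdown were not analysed here, and neither were the targeted genes, so the knockdowns themselves and the identity of the cells were not checked.

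Jockey elements are LINEs, retrotransposons without long terminal repeats that carry their own reverse transcriptase and endonuclease and insert new copies by reverse transcription at a nicked site in the genome. The family was first named in Drosophila. In animal germ cells, PIWI proteins bind piRNAs, which guide them to transposon transcripts. In the silkworm, Siwi and Ago3 are the PIWI proteins, and in the ping-pong cycle the cut made by either of them supplies piRNA precursors for the other. Maelstrom (Mael) is a conserved piRNA pathway protein, and the study placed it in the making of the Siwi-piRNA complex.

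RNA libraries held 32.5 to 45.2 M reads and small RNA libraries 1.76 to 4.81 M reads, as recovered from the steps of the deposited values. RNA is given in RPKM (reads per kb of entry per M reads in the library) and small RNA in RPM (reads per M reads). The same recovery gave lengths for the 21 entries with RNA reads, from 198 nt for BmTE_RM1-180 to 11358 nt for BmTE_RM3-31, with a median of 3187 nt. BmTE_RM6-49 and BmTE_RM6-4326 had 0 reads in all 12 libraries, where 3 reads, the limit that a count of 0 allows, would be 0.624 to 1.70 RPM of small RNA, and BmTE_RM6-2020 had 31 small RNA reads over its 6 libraries and none in RNA. Entries were tested where the 6 values of a table averaged 1 or more, which held for 14 Jockey entries in RNA and 19 in small RNA, 13 of them in both. BmTE_RM5-558 was tested in RNA only, 6 entries in small RNA only and 4 in neither. The counts below refer to these tested entries, not to all 24.

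In control cells, Jockey entries with like RNA levels carried very different amounts of Siwi-bound small RNA. Per length, BmTE_RM6-18 (4330 nt) stood highest in small RNA with 3631 ± 280 RPM per kb (SD, n = 2), at an RNA level of 5.43 ± 0.766 RPKM. BmTE_RM1-25, BmTE_RM3-31, BmTE_RM1-28, L1BM and BmTE_RM1-89 followed in that order with 1188 down to 959 RPM per kb. Neighbours in this order overlapped between the 2 control libraries, but BmTE_RM1-25 (1092 and 1284 RPM per kb) and BmTE_RM1-89 (865 and 1052 RPM per kb) did not. BmTE_RM5-1065 had 362 ± 8.73 and BmTE_RM5-173 292 ± 9.14 RPM per kb. At the other end, BmTE_RM1-105, BmTE_RM1-109, BmTE_RM1-115 and BmTE_RM6-837 had 0.811 to 1.98 RPM per kb, from only 32 to 47 small RNA reads each over 6 libraries, although their RNA stood at 4.99 to 7.48 RPKM. Conversely BmTE_RM5-173 had RNA of only 0.247 ± 0.0551 RPKM. Over the 13 entries tested in both tables, which share their libraries and may share reads, control RNA and control small RNA per kb (both on a log10 scale) had Pearson's r = -0.067 and Spearman's rho = 0.0385. BmTE_RM3-31 had the highest RNA level of the group, 20.7 ± 0.108 RPKM. In these bulk libraries, fewer cells carrying an RNA and less of it per cell cannot be told apart.

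**Figure D1:**
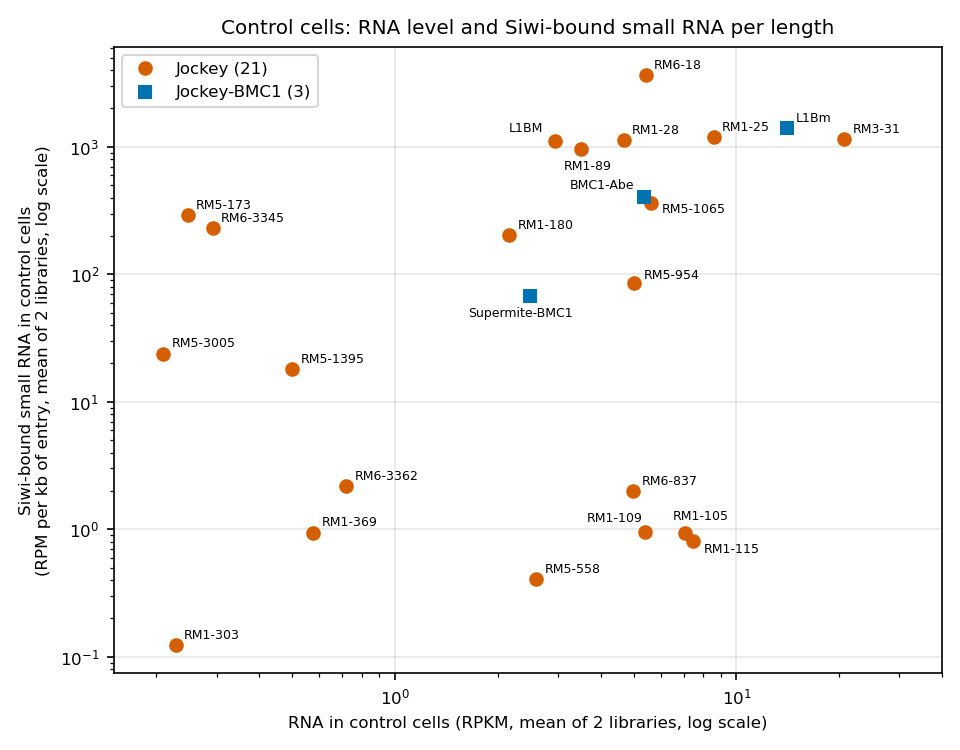
RNA level (RPKM, log axis) against Siwi-bound small RNA per length (RPM per kb, log axis) in control cells, each point the mean of 2 libraries for 1 entry with reads in both tables, 21 Jockey and 3 Jockey-BMC1 entries, labelled without the prefix BmTE_. BmTE_RM6-18 and BmTE_RM1-109 lie at nearly the same RNA level (5.43 and 5.39 RPKM) with 3631 and 0.948 RPM of small RNA per kb.

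As a group, Jockey entries held a smaller part of the Siwi-bound pool after Ago3 knockdown and a larger part after Mael knockdown. They held 4.81% and 5.44% of the reads in the control libraries, 1.55% and 1.60% after Ago3 knockdown and 7.57% and 7.89% after Mael knockdown. The 3 groups did not overlap. The mean share was 3.26-fold lower after Ago3 knockdown and 1.51-fold higher after Mael knockdown than in control cells, but 2 libraries against 2 allow no two-sided exact permutation p below 0.333. The 222 other LINE entries held 3.68% ± 0.0183 (SD, n = 2) with control siRNA, 2.31% ± 0.0162 with Ago3 siRNA and 3.32% ± 0.00958 with Mael siRNA. The 3 Jockey-BMC1 entries moved as Jockey did, holding 0.540% ± 0.00304, 0.201% ± 0.00466 and 1.10% ± 0.0283 in the same order. All listed transposons together also moved this way in small RNA, holding 43.05%, 36.6% and 49.3% of the reads (means, n = 2). Of those reads Jockey entries made up 11.9% ± 0.779, 4.30% ± 0.0154 and 15.7% ± 0.521, again in that order. Of all LINE small RNA reads, Jockey entries made up 54.8% ± 2.27 with control siRNA, 38.6% ± 0.635 with Ago3 siRNA and 63.6% ± 0.581 with Mael siRNA. In RNA they held 0.0470% and 0.0504% of the reads in control libraries, 0.0565% and 0.0480% after Siwi knockdown and 0.0512% and 0.0493% after Mael knockdown. Those RNA groups overlapped. All listed transposons together held 2.52% of RNA reads with control siRNA, 3.31% with Siwi siRNA and 2.92% with Mael siRNA (means, n = 2). Of those reads Jockey entries made up 1.83% and 2.04% in control libraries, 1.62% and 1.54% after Siwi and 1.66% and 1.78% after Mael knockdown. Both knockdowns thus lay below both controls. Other LINE entries also made up a smaller part, with means of 9.44%, 8.55% and 7.88% in the same order. Of LINE RNA reads Jockey entries made up 16.6% ± 0.341, 15.3% ± 0.811 and 17.6% ± 0.549 in the same order. A read that matches several like entries may be counted in each, so these sums can exceed the reads themselves.

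**Figure D2:**
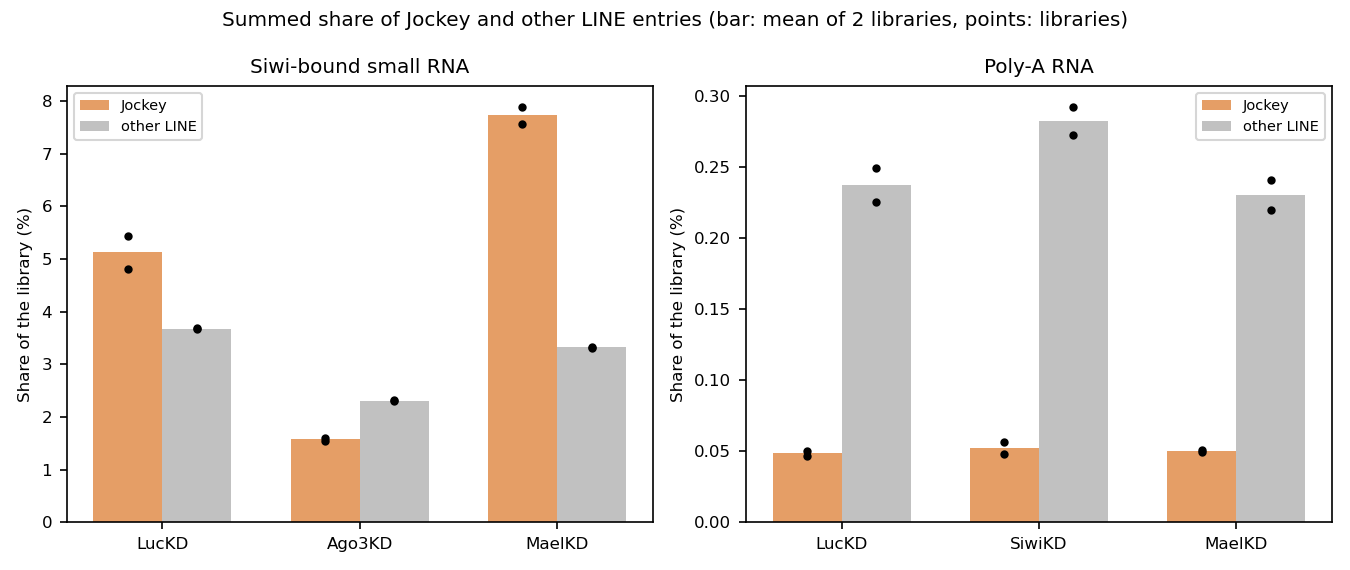
Share of each library (%) summed over the 24 Jockey and the 222 other LINE entries, left for Siwi-bound small RNA and right for RNA. Bars are means of 2 libraries and points the libraries. In small RNA the Jockey bar falls from 5.13% in control cells to 1.57% after Ago3 knockdown and stands at 7.73% after Mael knockdown, while in RNA it lies between 0.0487% and 0.0523%.

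Ago3 knockdown asked how the Siwi-bound pool depends on the partner PIWI protein. Siwi-bound small RNA of 13 of 19 tested Jockey entries fell and that of 1 rose (limma, Benjamini-Hochberg adjusted p under 0.05), against 40.6% of all 1004 tested entries that fell and 16.8% that rose (57.5% in either direction). The median log2 change was -1.16, against -0.28 over all entries and -0.56 over the 150 other LINE entries tested. Under trimmed-mean scaling the median over all entries became 0.00, with 258 entries higher and 302 lower in place of 169 and 408, and the Jockey median became -0.86, with 12 falls and 1 rise. Changes are given with the standard error of the fit on the log2(RPM + 1) scale, where low entries appear to change less than they did, and folds as ratios of mean RPM.

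BmTE_RM6-18 had 14866 and 16580.0 RPM in control libraries and 4034 and 4046 RPM after Ago3 knockdown. It fell most of the group, 3.89-fold (log2 change -1.96 ± 0.07, limma adjusted p = 2.15e-24). BmTE_RM3-31, the longest entry, went from 12455 and 13761 RPM to 4249 and 4457 RPM. Both Ago3 libraries lay far below both controls for each of these entries. BmTE_RM1-25 had 5781 and 6799 RPM in control libraries against 1813 and 1865 RPM (log2 change -1.77 ± 0.08). BmTE_RM1-28 had 4750.2 and 5434 RPM against 1528 and 1601 RPM. L1BM went from 3148 and 3964 RPM to 1045 and 1131 RPM, and BmTE_RM1-89 from 3258 and 3963 RPM to 1119 and 1143 RPM. The falls of BmTE_RM3-31, BmTE_RM1-25, BmTE_RM1-28, L1BM and BmTE_RM1-89 were of 3.01-fold to 3.42-fold. BmTE_RM5-954 fell 2.76-fold, from 376 and 374 RPM to 129 and 143 RPM. The other 6 falls were smaller, between 1.37-fold for BmTE_RM5-3005 and 2.58-fold for BmTE_RM5-1065. The BmTE_RM5-3005 call (log2 change -0.45 ± 0.20, limma adjusted p = 0.0472) is the weakest, and its libraries nearly touch, at 55.3 and 43.7 RPM in control and 42.5 and 29.9 RPM after knockdown. The call is not made when LucKD replicate 1 (log2 change -0.29) or Ago3KD replicate 2 (-0.21) is left out, nor with trimmed-mean scaling (-0.15, limma adjusted p = 0.53), no filter (adjusted p = 0.0865) or a pseudocount of 0.1 (adjusted p = 0.0577).

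The single rise after Ago3 knockdown rests on few reads. BmTE_RM1-303 had 2 and 0 reads in the control libraries, 8 and 4 after Ago3 knockdown and 2 and 1 after Mael knockdown. Its call (log2 change 1.51 ± 0.50, limma adjusted p = 0.00866) is not made when LucKD replicate 2 (log2 change 1.26) or Ago3KD replicate 1 (1.25) is left out. The 5 tested entries that did not pass, BmTE_RM1-105, BmTE_RM1-109, BmTE_RM1-115, BmTE_RM6-837 and BmTE_RM6-2020, had 31 to 47 small RNA reads each over 6 libraries. Their 95% intervals reached from -1.58 to 0.87 on the log2(RPM + 1) scale. A 2-fold fall of RPM + 1 lay within the interval of BmTE_RM1-105, BmTE_RM1-109 and BmTE_RM6-837. At these low values a 2-fold fall of RPM itself is a smaller change on that scale, and it was not excluded for BmTE_RM1-115 and BmTE_RM6-2020 either.

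**Figure D3:**
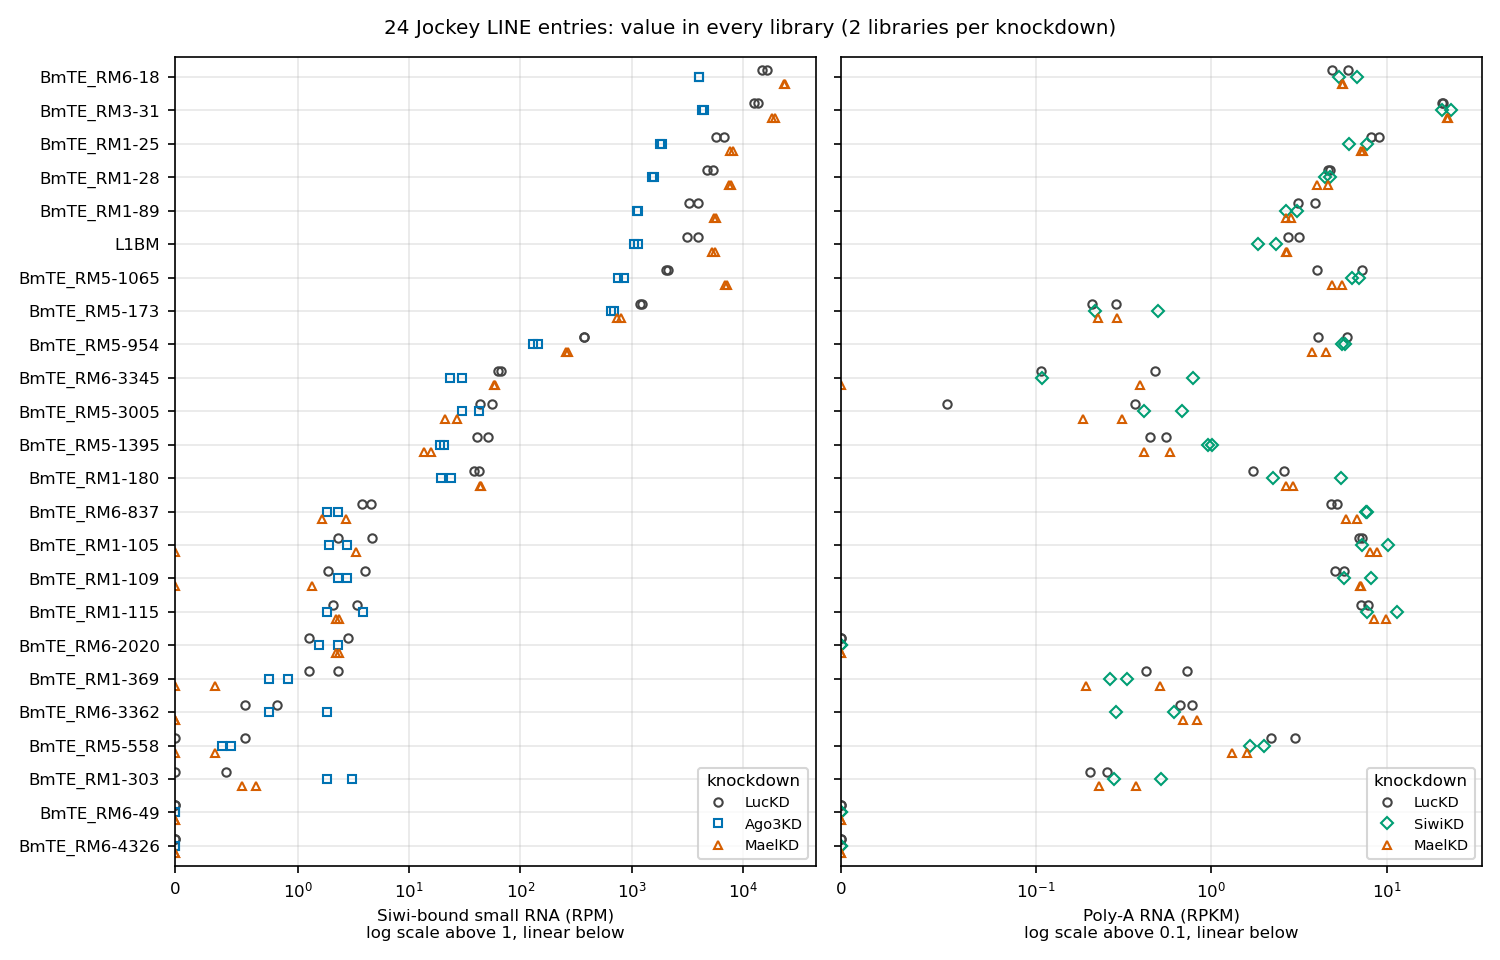
Value of each of the 24 Jockey entries in every library, left Siwi-bound small RNA (RPM) and right RNA (RPKM), on axes that are logarithmic above 1 RPM or 0.1 RPKM and linear below. Circles are control libraries, squares Ago3, diamonds Siwi and triangles Mael knockdown, 2 libraries each, with entries ordered by control RPM. From BmTE_RM6-18 down to BmTE_RM5-1065 the squares lie left and the triangles right of the circles, while no RNA change of these entries was called.

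Mael knockdown asked how the same pool depends on Mael, against the same control libraries. Of the 19 tested Jockey entries 7 rose and 5 fell, against 11.8% of all 1004 entries that rose and 44.4% that fell (56.2% in either direction). The median log2 change was 0.12, against -0.44 over all entries and -0.55 over other LINE entries. The 7 that rose were the 7 with the most small RNA per length in control cells, a ranking that uses the control libraries of the contrast. Trimmed-mean scaling put the median over all entries at 0.11, with 272 entries higher and 175 lower in place of 118 and 446, and the Jockey median at 0.56, with 9 rises and 1 fall. The 7 rises were called under every alternative run, and of the 5 falls only that of BmTE_RM5-1395 was.

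BmTE_RM5-1065 rose most, from 2041 and 2112 RPM in control libraries to 6837 and 7246 RPM, 3.39-fold (log2 change 1.76 ± 0.08, limma adjusted p = 3.18e-22). It had 759.9 and 851 RPM after Ago3 knockdown. The other 6 rises were of like size, 1.26-fold to 1.55-fold. BmTE_RM6-18 reached 23378 and 23947 RPM (log2 change 0.59 ± 0.07) and BmTE_RM3-31 18347 and 19247 RPM (0.52 ± 0.07). Both are the most abundant Jockey entries in every small RNA library of this comparison. L1BM reached 5272 and 5610.4 RPM (log2 change 0.62 ± 0.08). BmTE_RM1-89 reached 5459 and 5709.7 RPM (0.64 ± 0.08) and BmTE_RM1-28 7443 and 7845 RPM (0.59 ± 0.07). The rise of BmTE_RM1-25, to 7712 and 8119 RPM, was the smallest (log2 change 0.34 ± 0.08, limma adjusted p = 0.000221). In all 7 entries both Mael libraries lay above both control libraries.

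A smaller set of Jockey entries had lower small RNA values (RPM) after Mael knockdown. BmTE_RM5-173 went from 1232 and 1178 RPM in control libraries to 796 and 735 RPM, next to 694 and 645 RPM after Ago3 knockdown. BmTE_RM5-954 went from 376 and 374 RPM to 270.2 and 257 RPM, above its 129 and 143 RPM after Ago3 knockdown. With trimmed-mean scaling neither fall was called (log2 changes -0.03 and 0.12, the latter with the opposite sign). BmTE_RM5-1395 fell 3.12-fold, from 40.4 and 51.0 RPM to 13.6 and 15.7 RPM (log2 change -1.57 ± 0.22, limma adjusted p = 5.2e-08). BmTE_RM5-3005 fell from 55.3 and 43.7 RPM to 20.8 and 26.6 RPM (log2 change -1.03 ± 0.20), a call not made with trimmed-mean scaling (-0.42, limma adjusted p = 0.0793). These last entries had RNA of 0.499 ± 0.0733 and 0.210 ± 0.219 RPKM in control cells. BmTE_RM1-109 was also called lower (log2 change -1.31 ± 0.47, limma adjusted p = 0.0174) on 32 reads in all. Its libraries had 1.87 and 3.97 RPM in control and 1.32 and 0 RPM after knockdown, and the call is not made when MaelKD replicate 2 (-0.70) or LucKD replicate 2 (-0.91) is left out. BmTE_RM1-105 (log2 change -1.04, limma adjusted p = 0.0755) did not pass, but was called lower when MaelKD replicate 1 was left out, against control (-2.09) and against Ago3 knockdown (-1.73). The short entries BmTE_RM1-180 (198 nt) and BmTE_RM6-3345 (284 nt) did not pass after Mael knockdown, with 44.0 and 43.4 RPM against 38.5 and 42.0 RPM in control for the former and 58.9 and 58.1 against 63.3 and 66.9 RPM for the latter. With trimmed-mean scaling both were called higher (log2 changes 0.73 and 0.46, against 0.12 and -0.15). Both had fallen after Ago3 knockdown, to 19.1 and 23.9 RPM and to 29.9 and 23.4 RPM.

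The small RNA libraries of Mael and Ago3 knockdown were also set directly against each other. In RPM, 11 of 19 Jockey entries were higher after Mael than after Ago3 knockdown and 2 were lower. Over all entries 20.7% were higher and 31.7% lower (52.4% in either direction). The median log2 difference was 0.95, against -0.34 over all entries and -0.25 over other LINE entries. With trimmed-mean scaling 11 were higher and 0 lower, and over all entries 271 and 192 in place of 208 and 318. The difference was largest for BmTE_RM5-1065, 8.74-fold (log2 difference 3.13 ± 0.08, limma adjusted p = 3.89e-31), and came to 5.86-fold for BmTE_RM6-18 and 5.00-fold for L1BM. The lower entries were BmTE_RM5-3005 and BmTE_RM1-109, and neither call held under every alternative. The BmTE_RM5-3005 call is not made without MaelKD replicate 1 (log2 difference -0.41) or Ago3KD replicate 1 (-0.33), and that of BmTE_RM1-109 without MaelKD replicate 2 (-0.60) or either Ago3 library (-1.30 and -1.11). The small rise of BmTE_RM5-173 (log2 difference 0.19 ± 0.08, limma adjusted p = 0.0452) was lost without any 1 of 3 libraries, MaelKD replicate 1 (0.14), MaelKD replicate 2 (0.25) or Ago3KD replicate 2 (0.14). It was also lost with a pseudocount of 0.1 (limma adjusted p = 0.0524) and with no filter (limma adjusted p = 0.0690).

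RNA of the same entries showed no limma call after Siwi or Mael knockdown. After Siwi knockdown 0 of 14 tested Jockey entries passed limma, against 24.3% of all 490 tested entries that rose and 3.06% that fell (27.3% in either direction). At an unadjusted p under 0.05 there were 2, and edgeR's quasi-likelihood test on the recovered reads called 1. The median log2(RPKM + 1) change was 0.15, the same as over all entries. Trimmed-mean scaling changed these medians to -0.04 and -0.02, with 90 of all entries higher and 44 lower in place of 119 and 15. Other LINE entries had 17 rises and 1 fall among 61 tested. The Jockey entry called by edgeR was BmTE_RM6-837, with 5.17 and 4.81 RPKM in control libraries and 7.57 and 7.75 RPKM after Siwi knockdown (log2 change 0.53 ± 0.20, limma adjusted p = 0.0504, edgeR adjusted p = 0.0233). Its groups do not overlap, and it had 4.14 ± 0.559 RPM of Siwi-bound small RNA in control cells. BmTE_RM1-180, with 15 and 17 control reads, passed only without SiwiKD replicate 2 (log2 change 1.04).

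None of the Jockey entries richest in Siwi-bound small RNA was called in RNA, and their libraries lay on different sides of control. BmTE_RM6-18 had 4.89 and 5.97 RPKM in control libraries, 6.72 and 5.36 RPKM after Siwi knockdown and 5.61 and 5.58 RPKM after Mael knockdown. BmTE_RM3-31, with 7729 to 11259 RNA reads in each library, had 20.8 and 20.6 RPKM, then 23.3 and 20.6 RPKM, then 22.0 and 22.3 RPKM. All groups of BmTE_RM6-18 overlap with control, and both Mael libraries of BmTE_RM3-31 lie just above both controls (log2 change 0.09, not called). L1BM had 2.71 and 3.17 RPKM in control libraries, 2.33 and 1.84 RPKM after Siwi knockdown and 2.675 and 2.696 RPKM after Mael knockdown. Its log2 change after Siwi knockdown was -0.36 ± 0.23 (limma adjusted p = 0.283). All its knockdown libraries lay below both controls. So did those of BmTE_RM1-25, with 8.12 and 9.03 RPKM in control libraries, 7.74 and 6.11 RPKM after Siwi knockdown and 7.31 and 7.13 RPKM after Mael knockdown, and those of BmTE_RM1-89, with 3.13 and 3.87, then 3.08 and 2.65, then 2.82 and 2.65 RPKM. Their log2 changes lay between -0.28 and -0.22, none called. BmTE_RM5-1065, the strongest gain in small RNA, had 4.01 and 7.24 RPKM in control libraries, so its controls span both Mael libraries (5.55 and 4.89 RPKM). Of the entries with little small RNA but high RNA, BmTE_RM1-115 had 7.84 and 7.11 RPKM in control libraries, 11.4 and 7.68 RPKM after Siwi knockdown and 9.87 and 8.46 RPKM after Mael knockdown. BmTE_RM1-105 had 7.24 and 6.90, then 10.2 and 7.17, then 8.80 and 7.96 RPKM. Every knockdown library of these entries but 1, SiwiKD replicate 2, lies above both controls.

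After Mael knockdown 0 of 14 Jockey entries passed limma in RNA, against 8.37% of all entries that rose and 2.65% that fell (11.0% in either direction), with 1 at an unadjusted p under 0.05 and none called by edgeR. The median log2 change was 0.00, against -0.01 over all entries. BmTE_RM5-558 was the entry at unadjusted p under 0.05, with 2.18 and 3.01 RPKM in control libraries and 1.31 and 1.58 RPKM (log2 change -0.55 ± 0.24, limma adjusted p = 0.183). Mael against Siwi knockdown also gave 0 of 14 by limma, against 1.63% of all entries higher and 18.8% lower (20.4% in either direction), with none at an unadjusted p under 0.05 and none by edgeR. The 95% intervals of the 14 entries spanned -0.84 to 1.09 on the log2(RPKM + 1) scale after Siwi knockdown and -1.05 to 0.81 after Mael knockdown. After Siwi knockdown 13 of 14 upper bounds were under 2-fold of RPKM + 1. At low levels that limit is more than 2-fold of RPKM itself. With no filter on low values, the 7 further Jockey entries with RNA reads gave no call in any of the 3 RNA comparisons. In small RNA, leaving out the filter added calls for entries with few reads. BmTE_RM1-369 had 6 and 4 reads in control libraries, 2 and 2 after Ago3 knockdown and 1 and 0 after Mael knockdown, and was called lower after Mael knockdown (log2 change -1.23 ± 0.36, limma adjusted p = 0.0106). BmTE_RM6-3362 had 4 and 1, then 2 and 4, then 0 and 0 reads, and was called lower in Mael than in Ago3 knockdown (log2 difference -1.16 ± 0.34, limma adjusted p = 0.0112). Among the further entries in RNA, BmTE_RM5-1395 had 50 and 46 reads in control libraries and 79 and 103 after Siwi knockdown, 0.447 and 0.551 against 0.960 and 1.00 RPKM (limma adjusted p = 0.189).

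**Figure D4:**
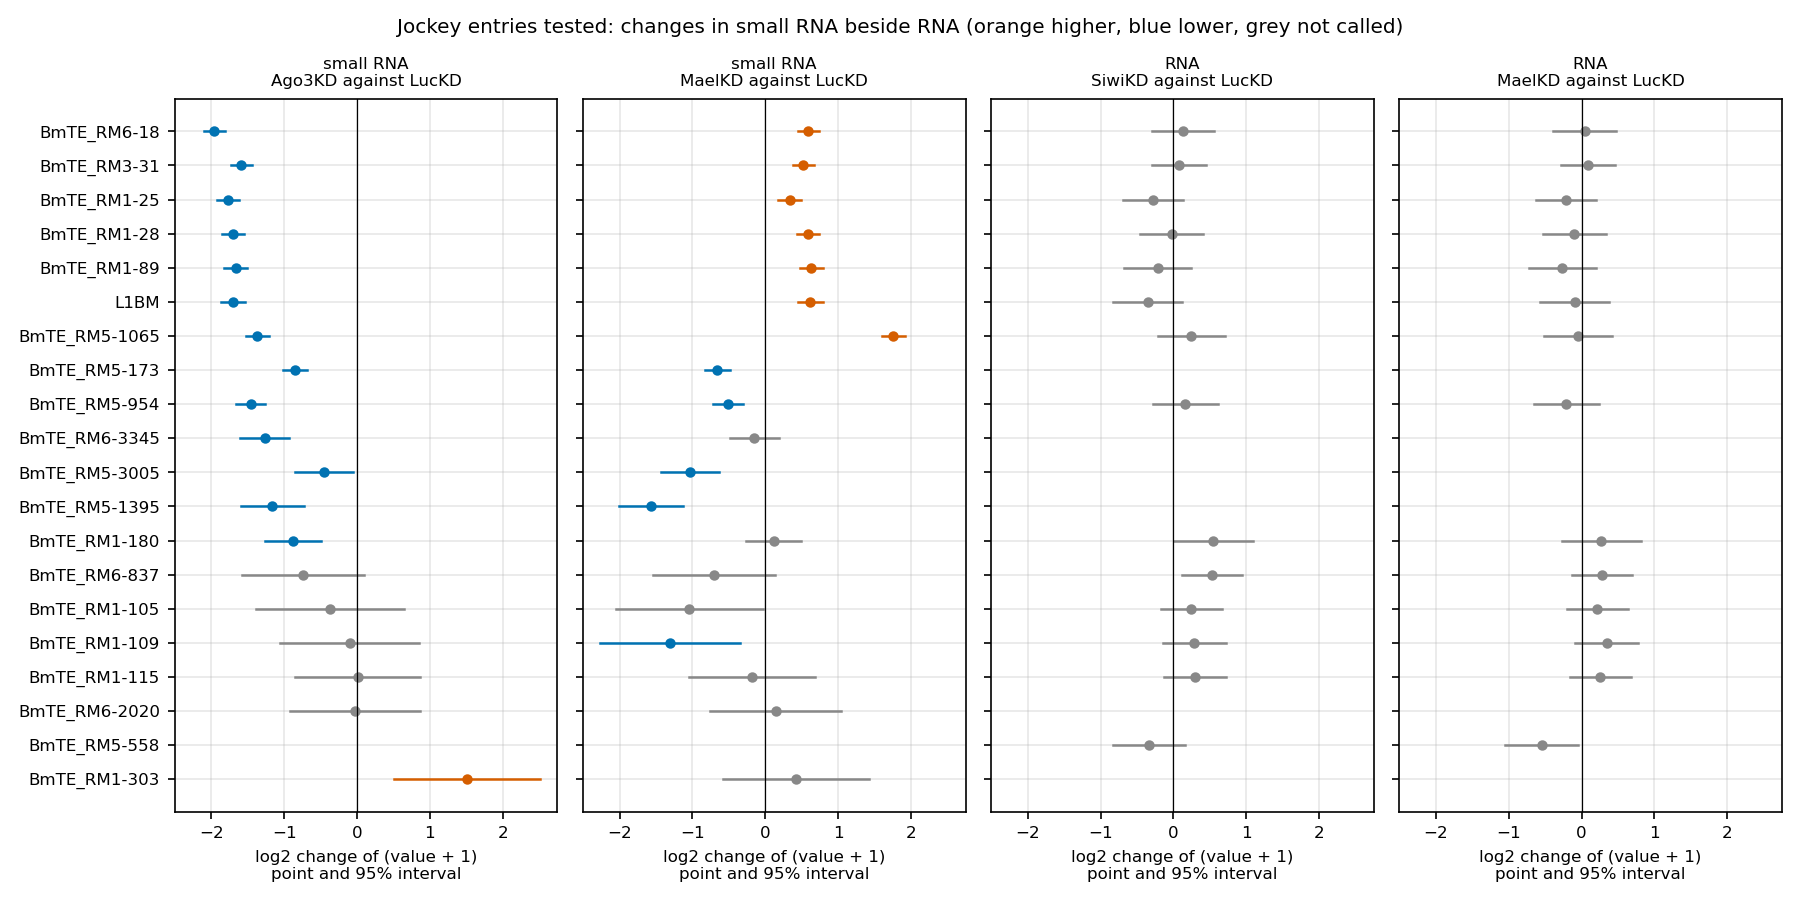
Log2 change of (value + 1) with its 95% interval for each tested Jockey entry, in small RNA after Ago3 and Mael knockdown and in RNA after Siwi and Mael knockdown, each against control. Orange entries were called higher, blue lower and grey not called (limma, adjusted p under 0.05), and an empty row was not tested. The 7 orange points of the second panel have blue points between -1.96 and -1.37 in the first and grey points in both RNA panels.

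The changes of an entry in small RNA and in RNA are set side by side here, and none of the RNA changes was called by limma. That of BmTE_RM6-837 after Siwi knockdown was called by edgeR. For BmTE_RM6-18 the log2 changes were -1.96 (Ago3, small RNA), 0.59 (Mael, small RNA), 0.13 (Siwi, RNA) and 0.04 (Mael, RNA). For BmTE_RM5-1065 they were -1.37, 1.76, 0.25 and -0.05 in the same order, and for BmTE_RM1-25 -1.77, 0.34, -0.28 and -0.22. BmTE_RM5-954 had -1.46, -0.51, 0.16 and -0.21. Among entries with little small RNA, BmTE_RM1-115 had 0.01, -0.18, 0.29 and 0.26, and BmTE_RM6-837 -0.74, -0.71, 0.53 and 0.28. Within each table both changes use the same control libraries, so they are given as values only, and the tables differ in unit and scaling.

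Some Jockey entries kept a nearly constant small RNA ratio to each other over the libraries. Pairs were picked after their values were seen, among 66 pairs of 12 Jockey and Jockey-BMC1 entries with a mean of at least 100 RPM. The small RNA ratio of BmTE_RM1-89 to L1BM stayed between 1.00 and 1.07 over the 6 libraries, and that of BmTE_RM1-28 to BmTE_RM1-89 between 1.36 and 1.46. The RNA ratios of these pairs varied more, from 0.985 to 1.44 and from 1.23 to 1.68. BmTE_RM5-1065 (5730 nt) tracked BMC1-Abe (5091 nt), a Jockey-BMC1 entry, with a small RNA ratio of 0.912 to 1.04 and an RNA ratio of 0.850 to 1.08. The highest RNA ratio of that pair was 1.27 times its lowest, against 1.16 times for BmTE_RM1-25 to BmTE_RM1-89. Whether these entries share reads was not tested, and entries that do would be counted more than once above. Of the 3 Jockey-BMC1 entries all fell after Ago3 knockdown, BMC1-Abe and Supermite-BMC1 rose after Mael knockdown (log2 changes 1.76 ± 0.07 and 2.06 ± 0.11), and L1Bm did not pass there (0.12 ± 0.07). L1Bm was called lower in RNA after Siwi knockdown, from 14.1 ± 1.75 to 8.74 ± 1.16 RPKM (log2 change -0.63 ± 0.19, limma adjusted p = 0.0145). That call is not made with no filter, nor when SiwiKD replicate 2 (log2 change -0.51) or LucKD replicate 2 (-0.51) is left out.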

How the data were processed

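Per the file headers, the deposited RNA values are RPKM and the deposited small RNA values are RPM, both made by the authors for 1716 transposon entries. The submitters' processing notes name STAR 2.7.9a, Bowtie 1.3.0, cutadapt 3.1, Trim Galore, bedtools and SAMtools, with no role or order. For the genome build, for strand in the counting and for reads with several matches, nothing is stated in the sources used here. Small RNA of 22 to 35 nt was read for 51 nt, per the labels. Titles gave the groups and the replicate numbers. No label calls the 2 libraries of a group separate cultures, and p-values therefore cover only their spread, possibly a technical one. Between replicates the chi-square per entry was 3.69 to 51.7, above counting noise.

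Whole reads were recovered within 0.001 reads for 100% of RPM values and, after a search for library totals and entry lengths, for 978 of 978 RNA entries above 0. On these reads edgeR called 606, 574 and 512 of 1004 small RNA entries (Ago3 and Mael against control, Mael against Ago3) and 139, 61 and 111 of 490 RNA entries (Siwi and Mael against control, Mael against Siwi). The RNA scale was anchored on the entries whose names state a length (6926 and 7603), so these do not test it. A length is the shortest that gives whole reads, and for an entry with few reads the true one may be longer. RPM counts relative to each immunoprecipitate's own reads, so the amount of Siwi-bound RNA per cell is not measured. Values were tested as log2(value + 1) with limma 3.58.1 (trend) in R 4.3.3 over all entries with a mean of at least 1, with 3 groups sharing 1 estimate of spread, two-sided, Benjamini-Hochberg adjusted over all entries tested, at 0.05. The script was run on simulated reads whose spread was fixed in advance, not estimated from these libraries, so its error rates on these data were not tested. Alternatives were a pseudocount of 0.1, no filter or a mean of at least 10, trimmed-mean scaling, a replicate block, edgeR 4.0.16 on recovered reads and each library left out. In such a fit the lone library of a group is assumed to vary like the others. Named entries were the 5 highest in each control, every RNA call and the 5 largest small RNA rises and falls, with all others accounted for. Members and lists were chosen with earlier results of these data known. No element sequences were used here.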

Additional observations from a re-analysis of the deposited data

How the results depend on the processing

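Counts of Jockey calls stayed within 1.5 times under every alternative in the 3 small RNA comparisons and were 0 throughout for RNA after Mael knockdown, against control or Siwi knockdown. For RNA after Siwi knockdown the 0 became 1 with edgeR on recovered reads, and 0 to 1 when each library was left out. With libraries left out in turn the small RNA calls were 13 in each case (Ago3), 11 to 13 (Mael) and 11 to 12 (Mael against Ago3). Trimmed-mean scaling moved the split after Mael knockdown from 7 higher and 5 lower to 9 and 1. It turned BmTE_RM5-954 from -0.51 to 0.12 and BmTE_RM6-3345 from -0.15, not called, to 0.46 (limma adjusted p = 0.02). This scaling divides all entries of a library by the same factor. The factors were 1.23 and 1.25 for the control and 0.828 and 0.780 for the Mael small RNA libraries. Why they differ was not tested. Trimmed-mean scaling also took the calls over all entries in RNA, Mael against Siwi knockdown, from 100 (8 higher, 92 lower) to 57 (14 and 43). Of 537 values recomputed under other settings 16 changed sign while called in neither fit, and of 396 with a library left out 34 did. Sharing a replicate number was no sign of pairing: deviations of same-numbered libraries correlated at -0.0461 to 0.0454, and with the replicate block 13, 12 and 13 small RNA entries and 0 RNA entries were called, without BmTE_RM5-3005 after Ago3 knockdown (limma adjusted p = 0.0558). Without its most abundant entry, the Jockey share of small RNA was 3.55% in control, 1.17% after Ago3 and 5.36% after Mael knockdown, and of RNA 0.0252%, 0.0273% and 0.0251%. Entries with few reads limit the small RNA results: the calls on BmTE_RM1-303 and BmTE_RM1-109 rest on 17 and 32 reads.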
